A study of Homo sapiens with 14 samples.

Results

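GSK-J4 and BIX-01294 were set directly against each other after 12 h of treatment of U2OS, an established human osteosarcoma cell line. The comparison holds 2 of the 14 libraries of the series, 1 for each compound, and both come from the table that holds replicate 1 of all 10 treatments. They were chosen by their labels alone, as 2 compounds given for the same time in the same table. GSK-J4 was given at 20 μM and BIX-01294 at 5 μM, so compound and dose cannot be told apart. The solvent control was DMSO at 0.5% by volume with no time stated, and all cells were grown in RPMI 1640 with 10% serum and antibiotics, with no change of genotype in any group. The series treated this line with 9 small molecules, most of them directed at chromatin proteins, and its title concerns autophagy. The other groups used here as a background were 2-PCPA (1 mM, 12 h), GSK343 (10 μM, 24 h), rapamycin (5 μM, 24 h), BRD4770 (20 μM, 24 h), SAHA (1 μM, 24 h), UNC1215 (50 μM, 24 h) and VPA (20 μM, 24 h). Only DMSO, 2-PCPA, GSK343 and rapamycin had 2 libraries, so no difference between GSK-J4 and BIX-01294 has a replicate check and no p-value is given.

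GSK-J4 is a cell-permeable ester whose product inhibits KDM6A and KDM6B, the demethylases that remove the repressive mark H3K27 methylation, and these enzymes belong to the Jumonji family of iron- and alpha-ketoglutarate-dependent dioxygenases. BIX-01294 inhibits EHMT1 and EHMT2, the methyltransferases that place mono- and dimethyl marks on H3K9. Several stress programmes of cultured tumour cells are read below through their target genes. The hypoxia factor HIF drives glycolysis, glucose uptake and collagen modification, and the metal sensor MTF1 drives the metallothioneins. The factors ATF4 and CHOP respond to amino acid and protein stress, SREBF2 drives cholesterol synthesis when sterols are low, and the immediate early genes EGR1 and FOS respond first to growth and stress signalling through MAP kinases.

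Values are FPKM, the fragments per kilobase of transcript scaled to all mapped fragments, so levels can be set beside each other between genes. A difference is GSK-J4 minus BIX-01294 on the log2(FPKM + 1) scale, which understates the change of low genes, and a gene counts as called at a difference of at least 1 or at most −1. Rows whose FPKM averaged 1 or more across the 10 libraries numbered 12804 and are called genes here. The absolute depth is unknown, and the steps between low values gave 0.555 of the DMSO depth for BIX-01294, the shallowest of the 10 libraries, and 0.662 for GSK-J4, where the deepest, SAHA, had 1.24. FPKM was above 0 for 15154 rows with BIX-01294 and for 15996 with GSK-J4. The cell type was checked against markers. Of 17 osteoblast and mesenchymal markers 10 passed the filter, and their summed level was 1280 FPKM with GSK-J4, 1177 FPKM with BIX-01294 and from 729 to 1474 FPKM in the other 8 libraries. VIM, SPARC and COL1A1 were high, RUNX2 was at 1.88 FPKM with GSK-J4 and 1.28 FPKM with BIX-01294, and 4 of the 17, among them the osteoblast gene SP7, were listed at 0 in both. Epithelial (2 of 10), blood (1 of 10) and endothelial (1 of 8) markers were mostly below the filter, with summed levels of at most 8.68 FPKM in either library.

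With GSK-J4, 1330 of the 12804 genes (10.4%) were at least 2-fold higher than with BIX-01294 and 1380 (10.8%) were at least 2-fold lower. At 4-fold there were 241 higher and 192 lower genes, and at 8-fold 63 and 54. The median difference over all genes was −0.08 with an SD of 0.92, and list medians below are given relative to that median. Among the 45 pairs of libraries in the table the 2710 genes past 2-fold (21.2%) placed this pair 8th, between 331 for VPA with rapamycin and 3459 for BIX-01294 with SAHA. Every pair that held BIX-01294 had at least 2049 such genes, and GSK-J4 had from 1076, with BRD4770, to 2837, with SAHA.

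**Figure D1:**
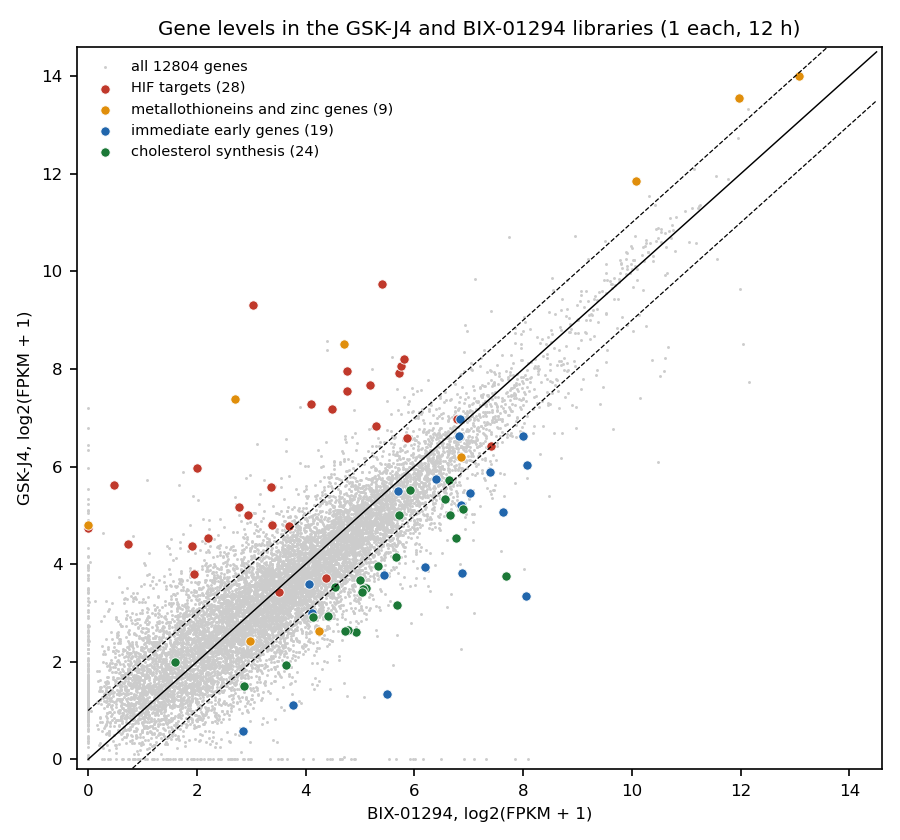
Level of each of 12804 genes as log2(FPKM + 1) with BIX-01294 (x axis) and GSK-J4 (y axis), 1 library each, with the line of equal level and dashed lines at a 2-fold difference. Coloured points mark 4 gene lists, of which the HIF targets lie mostly above the upper line (23 of 28) and the immediate early (14 of 19) and cholesterol synthesis genes (20 of 24) mostly below the lower one.

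The plot of all genes in both libraries shows the bulk of genes along the line of equal level, with the named lists off it in opposite directions. The only measure of replicate error in the series comes from the 4 groups with 2 libraries, which no label describes as separate cultures. For the 6 pairs of those groups the difference of a gene in replicate 1 and in replicate 2 was 0.25 to 0.51 apart at the median and 0.96 to 1.40 apart at the 95th percentile. With each difference centred on its median over all genes, these gaps were 0.23 to 0.32 and 0.92 to 1.07. Of the genes past 2-fold in replicate 1 of such a pair, 0.651% to 12.6% were past it in the same direction in replicate 2, and of those past 4-fold, 7.10% to 38.4% were past 2-fold again. The 2-PCPA library of replicate 1 was offset, with a median of DMSO minus 2-PCPA of 0.44, against −0.01 in replicate 2. In the pairs without 2-PCPA the shares were 6.60% to 12.6% and 24.2% to 38.4%. Most 2-fold calls in 1 library pair of the other compounds were thus not repeated in the second, and single genes below carry that limit. For the main lists, the largest gap between the medians of replicates 1 and 2 over those 6 pairs is given. The medians of several other lists lay inside that gap and are not read as a shift. These were the ribosomal protein, ribosome biogenesis, endoplasmic reticulum chaperone, heat shock, iron, BCL2, fatty acid, LXR and lysosome lists. The S phase, autophagy core, autophagy receptor, matrix, Jumonji and EHMT lists also lay inside it.

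The 10 libraries also show which of the compounds stood apart at a called gene. Among the 1330 genes higher with GSK-J4, GSK-J4 was the highest of the 10 libraries at 683 (51.4%, against 14.9% of all genes) and BIX-01294 the lowest at 715 (53.8%, against 13.2%). Among the 1380 lower genes, BIX-01294 was the highest of the 10 at 993 (72.0%, against 26.5% of all genes) and GSK-J4 the lowest at 456 (33.0%, against 9.76%). Both ends were taken by this pair at 245 of the higher genes, against 2.22% of all genes, and at 217 of the lower ones, against 2.17%. Calling genes by this difference favours such places, so these shares are a description.

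The HIF targets were far higher with GSK-J4. Of 30 listed genes 28 passed the filter, 23 of them were called higher and 0 lower, against 10.4% and 10.8% of all genes. Their median lay 2.44 above that of all genes, where the list's medians in replicates 1 and 2 of other pairs were at most 0.24 apart. Against the shared DMSO library the list's median was 2.65 for GSK-J4 and 0.31 for BIX-01294. GSK-J4 was the highest of the 10 libraries at 19 of the 28 genes, against 14.9% of all genes.

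The oxygen sensors of the pathway stood high. EGLN3, a prolyl hydroxylase that marks HIF for destruction and is itself a HIF target, was at 48.3 FPKM with GSK-J4, 0.384 FPKM with BIX-01294, 2.35 FPKM with DMSO and at most 10.0 FPKM in the other 8 libraries (difference 5.16, or 3.31 with a pseudocount of 5 in place of 1). EGLN1, the main enzyme of this kind, was at 154 FPKM with GSK-J4 and 16.05 FPKM with BIX-01294, and the other 8 libraries lay between 5.85 and 40.2 FPKM (difference 3.18). For both genes GSK-J4 stood above all other libraries, and BRD4770 was the next. DDIT4, an inhibitor of mTOR complex signalling and a target of both HIF and ATF4, had the largest difference of any named gene, with 639 FPKM for GSK-J4, 7.20 FPKM for BIX-01294 and 3.25 to 171 FPKM in the other libraries (6.29). The stress protein gene NDRG1 was at 857 FPKM with GSK-J4, 41.2 FPKM with BIX-01294 and 30.1 FPKM with DMSO (difference 4.35). CA9, the surface carbonic anhydrase that keeps hypoxic tumour cells from acidifying, was at 25.9 FPKM with GSK-J4, listed at 0 with BIX-01294, and at 0.609 FPKM with DMSO. BRD4770 was above GSK-J4 at CA9, with 36.1 FPKM, and the remaining libraries had at most the DMSO value.

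Genes that carry out the HIF programme lay on the same side. The glucose transporter SLC2A1 was at 265 FPKM with GSK-J4 against 52.96 FPKM with BIX-01294 and 29.1 FPKM with DMSO. PDK1, which keeps pyruvate out of the mitochondria, was at 19.8 against 2.76 FPKM, and PFKFB4, which makes the activator of phosphofructokinase, at 62.1 against 3.003 FPKM. The mitophagy receptors BNIP3 (248 and 26.1 FPKM, difference 3.20) and BNIP3L (241 and 51.7 FPKM, difference 2.20) were called as well. They were the only 2 of the 14 autophagy receptors past 2-fold in either direction, near the 10.4% of all genes called higher. The median of that list, 0.22, lay inside its replicate gap of up to 0.25. VEGFA, the angiogenic growth factor, was at 113 FPKM with GSK-J4 and 38.3 FPKM with BIX-01294, both above the 13.99 FPKM of DMSO (difference 1.53). The exceptions were BHLHE40, a transcriptional repressor, at 84.5 FPKM with GSK-J4 and 170 FPKM with BIX-01294 (difference −0.997, just short of a call), PFKFB3 (−0.65), RIOK3 (−0.08), TMEM45A (0.19) and the glucose transporter SLC2A3 (0.73). At SLC2A3 both compounds were above every other library, with 94.97 FPKM for GSK-J4, 57.0 FPKM for BIX-01294 and at most 26.2 FPKM elsewhere.

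The promoters of these genes are shown because the core of the hypoxia response element, ACGTG, is the site that HIF is known to bind. Promoters are the 250 bases before a gene's start in the RefSeq annotation of GRCh38.p14, 5′ to 3′ on the gene's strand, and capitals mark ACGTG or its reverse complement. CA9 lies at chr9:35673678-35673927 (plus strand), ANKRD37, an ankyrin repeat protein gene, at chr4:185396591-185396840 (plus strand), and LDHA, lactate dehydrogenase, at chr11:18394313-18394562 (plus strand).
CA9: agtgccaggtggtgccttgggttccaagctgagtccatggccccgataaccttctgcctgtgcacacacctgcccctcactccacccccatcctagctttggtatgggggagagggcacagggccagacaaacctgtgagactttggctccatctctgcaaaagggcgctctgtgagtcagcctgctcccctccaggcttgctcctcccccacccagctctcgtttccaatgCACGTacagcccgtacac
ANKRD37: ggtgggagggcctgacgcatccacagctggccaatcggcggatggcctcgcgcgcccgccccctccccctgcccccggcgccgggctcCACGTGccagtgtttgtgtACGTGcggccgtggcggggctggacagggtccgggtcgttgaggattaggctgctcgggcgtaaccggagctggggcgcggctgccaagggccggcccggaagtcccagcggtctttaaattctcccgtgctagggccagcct
LDHA: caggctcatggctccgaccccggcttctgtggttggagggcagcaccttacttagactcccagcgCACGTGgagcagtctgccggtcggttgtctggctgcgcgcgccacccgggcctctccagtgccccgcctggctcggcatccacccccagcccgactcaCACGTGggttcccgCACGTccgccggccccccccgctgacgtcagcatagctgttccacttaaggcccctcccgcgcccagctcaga
CA9 held 1 match, ANKRD37 3 and LDHA 5, where a palindromic CACGTG counts once on each strand. Of the 28 HIF targets 22 had a promoter in the set used, with 30 promoters between them. Of these 30, 18 (60.0%) held ACGTG on either strand. Among 13228 promoters of genes that passed the filter 22.4% held it, and among all 35116 promoters used 18.5%. ANKRD37 itself was at 20.3 FPKM with GSK-J4 and 0.669 FPKM with BIX-01294, and BRD4770 had 13.2 FPKM (difference 3.67, or 2.16 with a pseudocount of 5). A match says only that these letters stand in the window. The list was drawn up from known HIF targets, and matches did not follow the difference. EGLN3, SLC2A1, PFKFB4, P4HA2 and KDM3A, all called higher, held 0 matches there. BHLHE40, lower with GSK-J4, held 4, and PFKFB3 and RIOK3, which were not called, held matches too.

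**Figure D2:**
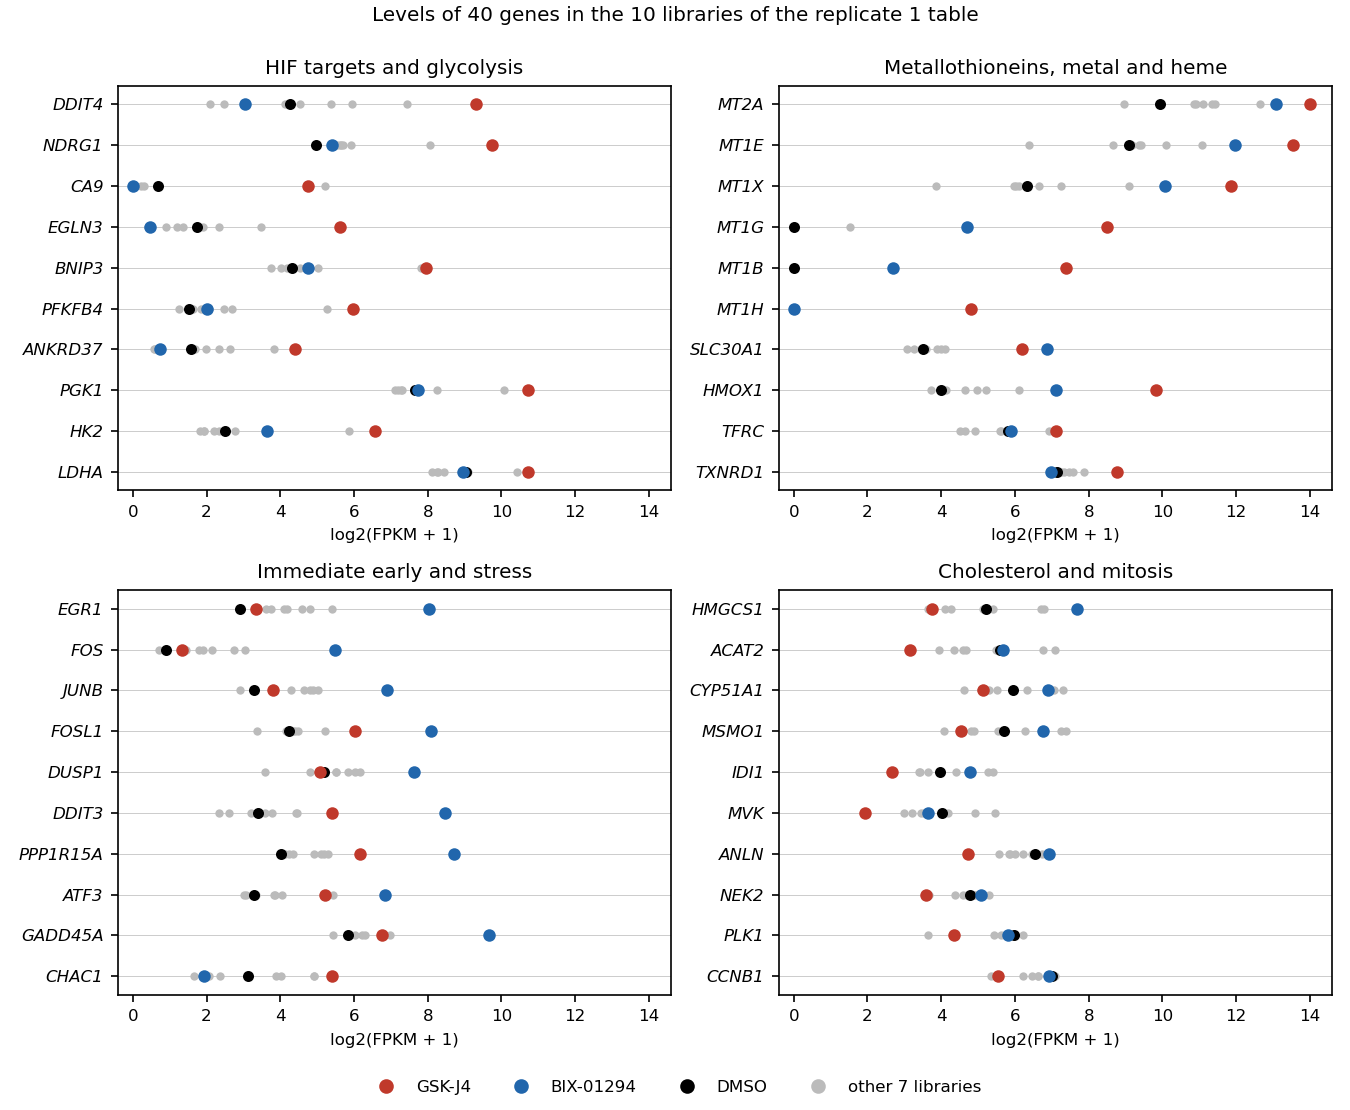
Level of 40 genes as log2(FPKM + 1) (x axis) in the 10 libraries of the replicate 1 table, with GSK-J4 in red, BIX-01294 in blue, DMSO in black and the other 7 libraries in grey. GSK-J4 is the rightmost point for most HIF, glycolysis and metal genes (CA9, with BRD4770 above it, and SLC30A1 are exceptions), and BIX-01294 is the rightmost for the immediate early and stress genes except CHAC1.

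Glycolytic enzymes were next. All 16 passed the filter, and 13 were called higher with GSK-J4 and 0 lower, against 10.4% and 10.8% of all genes. The median lay 1.46 above all genes, where replicate medians of other pairs were at most 0.29 apart. Against DMSO the median was 1.58 for GSK-J4 and −0.03 for BIX-01294. PGK1, phosphoglycerate kinase, was at 1675 FPKM with GSK-J4, 213 FPKM with BIX-01294 and 202 FPKM with DMSO (difference 2.97). Hexokinase gene HK2 was at 93.5, 11.5 and 4.65 FPKM in the same order (2.92). LDHA was at 1699, 498 and 527 FPKM (1.77), and the brain-type isoforms ALDOC (2.88) and ENO2 (2.78) were called too. GAPDH, often used as a constant reference gene, was at 10272 FPKM with GSK-J4 and 4517 FPKM with BIX-01294, and BRD4770 had 9824 FPKM (difference 1.19, and 0 with quantile normalization). The 16 enzymes took 4.43% of all FPKM with GSK-J4, 1.74% with BIX-01294, 1.97% with DMSO and 4.09% with BRD4770. PKM (0.68), PFKL (0.53) and the muscle phosphofructokinase PFKM (−0.33) were not called. ACGTG was present in 14 of 36 promoters (38.9%) of the list.

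Collagen-modifying enzymes were a list drawn up after values were seen. P4HA1, P4HA2, PLOD2 and LOX in it were already counted among the HIF targets, so its counts are not a separate result. Of 15 tested genes 6 were called higher and 1 lower, against 10.4% and 10.8% of all genes, with a median of 0.62 above all genes. The prolyl hydroxylases of collagen, P4HA1 (144 FPKM with GSK-J4, 21.5 FPKM with BIX-01294) and P4HA2 (185 and 26.1 FPKM), and the lysyl hydroxylase PLOD2 (204 and 35.2 FPKM) led it. The cross-linking oxidase LOX was at 46.6 and 9.34 FPKM, and LOXL4 was the called lower member (−1.14). The wider list of extracellular matrix and YAP or TGF-beta genes had a median of 0.00. Of its 20 genes 2 were called higher, near the 10.4% of all genes, and 4 lower, against 10.8%. ANKRD1, a YAP target, led the lower side with 67.2 FPKM for GSK-J4, 1431 FPKM for BIX-01294, 86.9 FPKM for DMSO and at most 278 FPKM elsewhere (−4.39).

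Metallothioneins, small proteins that bind zinc and copper, were far above DMSO with both compounds and higher still with GSK-J4. MT2A, the most abundant, was at 16504 FPKM with GSK-J4, 8671 FPKM with BIX-01294, 982 FPKM with DMSO and at most 6448 FPKM in the other 8 libraries (difference 0.93, not a call). MT1E was at 11962, 4030 and 548 FPKM with GSK-J4, BIX-01294 and DMSO (1.57, or 0.58 with quantile normalization, which ends the call), and MT1X at 3700, 1082 and 78.9 FPKM (1.77). GSK-J4 was the highest and BIX-01294 the second highest of the 10 libraries for these 3 genes. MT1G was at 362 FPKM with GSK-J4, 25.1 FPKM with BIX-01294 and 1.90 FPKM with SAHA and was listed at 0 in the other 7 libraries. MT1B was at 167 and 5.48 FPKM and listed at 0 elsewhere, and MT1H was at 26.8 FPKM with GSK-J4 and listed at 0 in all 9 other libraries. The metallothionein rows together took 6.61% of all FPKM with GSK-J4, 2.69% with BIX-01294, 0.353% with DMSO and 0.202% to 1.72% in the other 7. These genes are near-identical copies on chromosome 16, so reads may have been split between them.

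Of the metallothionein and zinc list, 9 of 13 genes passed the filter. Of these, 5 were called higher and 1 lower, against 10.4% and 10.8% of all genes. The median lay 1.65 above all genes, or 0.59 with quantile normalization, with replicate medians of other pairs at most 0.46 apart. Against DMSO it was 4.44 for GSK-J4 and 2.82 for BIX-01294. MT1B and MT1H passed the filter only through their level with GSK-J4, so their calls are in part set by the filter. The count and the median include both genes. With rows listed at 0 in either library left out, MT1H among them, 4 of 8 genes were called higher and the median was 1.35. The zinc transporters lay apart from the metallothioneins. SLC30A1, the zinc exporter that MTF1 drives, was at 72.4 FPKM with GSK-J4, 115 FPKM with BIX-01294, 10.5 FPKM with DMSO and at most 16.3 FPKM elsewhere (−0.67). The zinc importer SLC39A10 was at 5.16 FPKM with GSK-J4, below the other 9 libraries, and at 18.0 FPKM with BIX-01294 (−1.62). The promoters of MT2A (chr16:56608334-56608583, plus strand) and MT1H (chr16:56669564-56669813, plus strand) are shown because they carry many copies of the metal response element core TGCNCNC, the site of MTF1, which is in capitals on either strand.
MT2A: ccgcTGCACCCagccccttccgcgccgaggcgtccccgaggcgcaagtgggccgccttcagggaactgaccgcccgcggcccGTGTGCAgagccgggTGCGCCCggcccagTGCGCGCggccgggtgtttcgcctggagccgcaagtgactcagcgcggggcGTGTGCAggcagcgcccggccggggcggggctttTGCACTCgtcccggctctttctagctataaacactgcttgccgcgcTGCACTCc
MT1H: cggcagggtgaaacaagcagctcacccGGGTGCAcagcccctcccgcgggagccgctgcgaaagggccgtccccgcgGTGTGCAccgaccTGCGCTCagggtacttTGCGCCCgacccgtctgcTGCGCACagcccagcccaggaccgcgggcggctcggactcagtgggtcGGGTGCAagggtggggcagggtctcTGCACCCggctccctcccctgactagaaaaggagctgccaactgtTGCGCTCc
MT2A held 7 matches and MT1H 8, with overlapping matches counted apart. The 8 promoters found for 7 members of the list held 3.125 matches on average, where promoters of genes that passed the filter held 0.889. With at least 1 match there were 5 of 8 (62.5%), against 56.0% of promoters of genes that passed the filter.

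HMOX1, heme oxygenase, which breaks heme down to iron, was at 914 FPKM with GSK-J4, 138 FPKM with BIX-01294 and 15.0 FPKM with DMSO, and 2-PCPA had 136 FPKM (difference 2.72). It is a target of the oxidative stress factor NRF2, and the NRF2 list as a whole lay 0.52 above all genes (0.30 with no filter). Of its 18 genes 2 were called higher, near the 10.4% of all genes, and 0 lower. The other called member was TXNRD1, thioredoxin reductase, at 437 and 124 FPKM (1.81). GCLM of glutathione synthesis was at 38.5 and 18.9 FPKM, just short of a call (0.99), and NQO1, a standard NRF2 target, was at 73.2 FPKM with GSK-J4, 51.9 FPKM with BIX-01294 and 73.8 FPKM with DMSO. Iron handling genes had a median of 0.14 above all genes, with 4 of 19 called higher and 0 lower, against 10.4% and 10.8% of all genes. TFRC, the transferrin receptor that imports iron, was at 137 FPKM with GSK-J4 and 58.3 FPKM with BIX-01294, close to the 54.9 FPKM of DMSO (1.22). The iron exporter SLC40A1 was at 6.89 FPKM with GSK-J4, near the 8.40 FPKM of DMSO, and at 1.47 FPKM with BIX-01294, the lowest of the 10 libraries (1.67, or 0.88 with a pseudocount of 5). The mitochondrial iron importer SLC25A37 was the fourth called member (1.54), and the ferritin genes FTH1 (0.95) and FTL (0.26) were not called.

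Of 34 ATF4 and CHOP targets 10 were called higher with GSK-J4 and 3 lower, against 10.4% and 10.8% of all genes. The median lay 0.66 above all genes, against replicate medians of other pairs up to 0.57 apart. With a pseudocount of 5 the median was 0.50, inside that gap. Against DMSO the list's median was 1.27 for GSK-J4 and 0.41 for BIX-01294. Several of the genes called higher serve amino acid supply or use. CHAC1, which degrades glutathione, was at 41.4 FPKM with GSK-J4, 2.78 FPKM with BIX-01294 and 7.68 FPKM with DMSO (3.49). Asparagine synthetase gene ASNS was at 187, 64.8 and 54.9 FPKM in that order (1.51), and the serine synthesis gene PSAT1 at 109, 34.7 and 38.1 FPKM (1.62). The glycine transporter gene SLC6A9 (1.84) and PSPH of serine synthesis (1.43) were called as well. At these amino acid genes BIX-01294 lay near or below DMSO and GSK-J4 above it.

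The 3 genes called lower were DDIT3, PPP1R15A and ATF3, which among the 34 is no more than the 10.8% of all genes. DDIT3, which encodes CHOP itself, was at 354 FPKM with BIX-01294, 41.2 FPKM with GSK-J4, 9.56 FPKM with DMSO and at most 21.0 FPKM elsewhere (−3.07). PPP1R15A, the phosphatase subunit that restarts translation after stress, was at 416 FPKM with BIX-01294, 71.2 FPKM with GSK-J4 and 15.3 FPKM with DMSO (−2.53). ATF3, a stress transcription factor, was at 114, 36.1 and 8.76 FPKM in that order (−1.64). At DDIT3 and PPP1R15A both compounds stood above the other 8 libraries, BIX-01294 by far the more. ATF4 itself (653 FPKM with BIX-01294, 602 FPKM with GSK-J4, 288 FPKM with DMSO, −0.12) and the pseudokinase gene TRIB3 (46.3, 43.0 and 6.59 FPKM, −0.10) were at nearly the same level with both compounds and above every other library. Chaperones of the endoplasmic reticulum had a median of −0.26, inside the replicate gap of up to 0.49. Of 22 genes 0 were called higher and 1 lower (DNAJB11, −1.16, or −0.88 with quantile normalization). HSPA5, their main member, was at 98.3 FPKM with GSK-J4 and 180 FPKM with BIX-01294 (−0.87). Heat shock proteins lay at −0.21, inside a replicate gap of up to 0.35. The 19 tested genes included 1 called higher and 3 lower, against 10.4% and 10.8% of all genes. HSPA8, the constitutive member, was at 247 and 168 FPKM, where DMSO had 833 FPKM and no other library was below 454 FPKM.

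The immediate early genes were higher with BIX-01294. Of 19 tested genes 14 were called lower with GSK-J4 and 0 higher, against 10.8% and 10.4% of all genes, and the median lay at −1.56, where replicate medians of other pairs were at most 0.39 apart. Against DMSO the median was 0.52 for GSK-J4 and 2.59 for BIX-01294. BIX-01294 was the highest of the 10 libraries at 16 of the 19 genes, against 26.5% of all genes. EGR1, a zinc finger factor induced by MAP kinase signalling, was at 263 FPKM with BIX-01294, 9.22 FPKM with GSK-J4, 6.49 FPKM with DMSO and at most 41.4 FPKM elsewhere (−4.69). FOS, a subunit of the AP-1 factor, was at 44.1, 1.54 and 0.882 FPKM in that order (−4.15). JUNB, its partner, was at 117, 13.02 and 8.78 FPKM (−3.07). For these 3 genes GSK-J4 lay within the range of the other 8 libraries and BIX-01294 above it. MYC was above the other libraries with both compounds, at 256 FPKM with BIX-01294, 97.9 FPKM with GSK-J4 and at most 59.2 FPKM elsewhere (−1.38). JUN was the 1 member with a difference above 0, at 125 FPKM for GSK-J4 and 114 FPKM for BIX-01294 (0.13).

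Feedback inhibitors and other genes downstream of MAP kinases, listed after values were seen, had a median of −1.26. Replicate medians of other pairs were at most 0.31 apart. The 13 tested genes included 1 called higher and 7 lower, against 10.4% and 10.8% of all genes. DUSP2, a phosphatase that switches MAP kinases off, was at 115 FPKM with BIX-01294, 3.81 FPKM with GSK-J4 and 2.40 FPKM with DMSO (−4.60). SPRY2, an inhibitor of receptor signalling, was at 68.4 and 6.91 FPKM with BIX-01294 and GSK-J4 (−3.13). ETV4, a factor downstream of the same kinases, went the other way, with 90.4 FPKM for GSK-J4, 40.3 FPKM for BIX-01294 and 12.9 FPKM for DMSO (1.15). NF-kB targets and cytokines were led by the secreted factors IL11, at 60.0 FPKM with BIX-01294 and 5.89 FPKM with GSK-J4 (−3.15), and LIF, at 114 and 15.0 FPKM (−2.84). Of this list 5 of 11 tested genes were called lower and 0 higher, against 10.8% and 10.4% of all genes. The list's median was −0.89, with replicate medians of other pairs at most 0.10 apart. The other 11 of its 22 genes did not pass the filter, and with no filter its median was 0. GEM, a small GTPase gene (136 FPKM with BIX-01294, 7.01 FPKM with GSK-J4, −4.09), CDO1, cysteine dioxygenase (32.7 and 1.43 FPKM, −3.80), and the kinase gene PIM1 (96.5 and 7.66 FPKM) were further genes at which BIX-01294 stood above all other libraries. At CDO1 and PIM1 GSK-J4 was also the lowest of the 10.

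p53 targets lay on the same side, with a median of −0.59, 7 of 24 called lower and 0 higher, against 10.8% and 10.4% of all genes. With quantile normalization the median was −0.46 and 2 were called lower, CDKN1A (−0.99) no longer among them. GADD45A, a growth arrest gene that p53 and CHOP both regulate, was at 806 FPKM with BIX-01294, 108 FPKM with GSK-J4, 56.4 FPKM with DMSO and at most 125 FPKM elsewhere (−2.89). CDKN1A, the p21 inhibitor of cyclin-dependent kinases, was at 244 FPKM with BIX-01294, 105 FPKM with GSK-J4 and 57.9 FPKM with DMSO (−1.21). MDM2, a direct p53 target, was at 48.6 and 31.8 FPKM, inside the range of the other libraries (−0.60). Against DMSO the list's median was 0.69 for BIX-01294 and 0.19 for GSK-J4. In the BCL2 family, 5 of 16 genes were called higher with GSK-J4 and 2 lower, against 10.4% and 10.8% of all genes. The median was 0.14, and with a pseudocount of 5 the called higher genes numbered 1. BCL2L11, which encodes the death activator BIM, was at 9.75 FPKM with GSK-J4 and 2.85 FPKM with BIX-01294 (1.48, or 0.91 with that pseudocount). The short-lived survival factor MCL1 was at 113 and 293 FPKM (−1.37), and PMAIP1, its antagonist NOXA, at 68.9 and 181 FPKM (−1.38).

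Cholesterol synthesis was lower with GSK-J4. Of 24 tested genes 20 were called lower and 0 higher, against 10.8% and 10.4% of all genes. The median lay at −1.47, and against DMSO it was −1.23 for GSK-J4 and 0.27 for BIX-01294. This list was the least stable between replicates, whose medians in other pairs were up to 1.18 apart. With a pseudocount of 5 the list's median was −1.18, no larger than that gap, which was taken with a pseudocount of 1. In that setting 17 genes were called lower and 0 higher. HMGCS1, an early enzyme of the pathway, was at 12.5 FPKM with GSK-J4, 204 FPKM with BIX-01294, 35.8 FPKM with DMSO and 11.5 to 109 FPKM in the other 8 (−3.92). The thiolase gene ACAT2 was at 7.96, 50.1 and 47.5 FPKM in that order (−2.51), and the sterol oxidase gene MSMO1 at 22.3, 107 and 50.7 FPKM (−2.22). GSK-J4 was the lowest of the 10 libraries at 11 of the 24 genes, ACAT2 among them, against 9.76% of all genes. BIX-01294 was the highest at 1, HMGCS1, against 26.5% of all genes. SREBF2, the factor that drives the pathway, was at 44.7 and 59.8 FPKM (−0.41), and TM7SF2 was the one member above its BIX-01294 level (0.40). Fatty acid synthesis had a median of 0.17, with FASN (−1.27, or −0.99 with quantile normalization) its 1 called gene of 14, and LXR targets, which respond to sterol excess, had a median of 0.21 (−0.033 with quantile normalization) with 1 of 8 called lower.

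**Figure D3:**
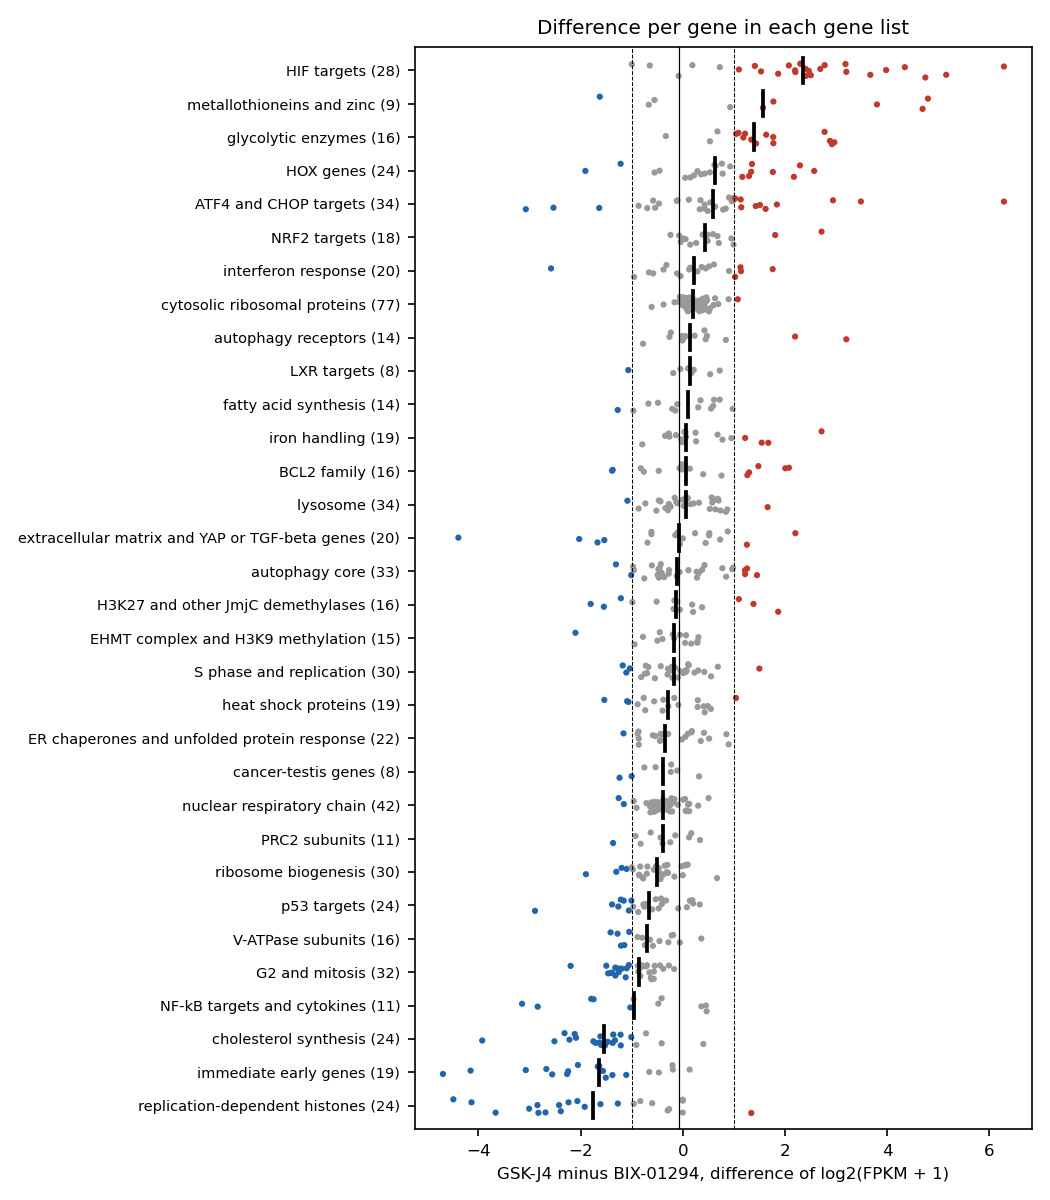
Difference of log2(FPKM + 1), GSK-J4 minus BIX-01294, for each tested gene of 32 lists (number tested in parentheses), with the median of each list as a black bar, the median of all genes as a solid line and dashed lines at a 2-fold difference. HIF targets, metallothioneins and glycolytic enzymes lie highest, and cholesterol synthesis, immediate early genes and histones lowest.

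Genes of G2 and mitosis were lower with GSK-J4 throughout. All 32 had a difference below 0, against 53.9% of all genes. Called lower were 14 and called higher 0, against 10.8% and 10.4% of all genes. The median lay at −0.77, against replicate medians of other pairs up to 0.36 apart. Against DMSO the median was −0.996 for GSK-J4 and −0.19 for BIX-01294, and GSK-J4 was the lowest of the 10 libraries at 17 of the 32, where it was lowest at 9.76% of all genes. ANLN, a scaffold of the cytokinetic ring, was at 25.5 FPKM with GSK-J4, 120 FPKM with BIX-01294 and 92.8 FPKM with DMSO (−2.19). The mitotic kinase gene PLK1 was at 19.4, 55.2 and 62.2 FPKM in that order (−1.46), and the cyclin gene CCNB1 at 45.2, 120 and 128 FPKM (−1.39). BRD4770 was lower still at PLK1 (11.6 FPKM) and CCNB1 (40.1 FPKM). Fewer cells in mitosis and less RNA per cell cannot be told apart in bulk RNA. Genes of S phase and replication had a median of −0.10, with 1 of 30 called higher (CDT1, a licensing factor, 1.499) and 3 lower (CCNE1 the most, −1.18, or −0.89 with quantile normalization).

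Replication-dependent histone genes had the lowest median, −1.69. The 24 tested genes included 14 called lower and 1 higher, against 10.8% and 10.4% of all genes. The other 33 of the 57 rows did not pass the filter, and the median of the list was 0 with no filter and −0.85 with a pseudocount of 5. With rows listed at 0 in either library left out, 11 genes remained, 6 called lower and 1 higher, with a median of −1.51. Many of the calls thus rest on a listed 0. HIST1H4H was at 2.84 FPKM with GSK-J4, 47.6 FPKM with BIX-01294 and 25.9 FPKM with DMSO (−3.66), and HIST1H4C at 1.72, 20.9 and 3.54 FPKM (−3.01). HIST1H2BJ was listed at 0 with GSK-J4, with 21.5 FPKM for BIX-01294 and 34.1 FPKM for DMSO. HIST1H3F was at 16.6 FPKM with BIX-01294 and listed at 0 with GSK-J4 and DMSO, and it passed the filter only through BIX-01294. These messages lack a poly(A) tail, the libraries were made from isolated mRNA, and the genes are near-identical copies, so their values are uncertain.

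V-ATPase subunits form the proton pump of the lysosome. Their median against DMSO was 0.50 for BIX-01294 and −0.03 for GSK-J4. Of the 16 genes 15 had a difference below 0, against 53.9% of all genes. Called lower were 5 and called higher 0, against 10.8% and 10.4% of all genes, with 2 lower under quantile normalization. The median difference lay at −0.62, where replicate medians of other pairs were at most 0.13 apart. BIX-01294 was the highest of the 10 libraries at 8 of the 16, against 26.5% of all genes, and GSK-J4 the lowest at 3, against 9.76%. ATP6V1C1 was at 9.23 FPKM with GSK-J4, 23.8 FPKM with BIX-01294 and 8.11 FPKM with DMSO (−1.28). At ATP6V1A, the catalytic subunit, it was GSK-J4 that stood apart, at 6.57 FPKM, below the other 9 libraries, against 19.1 FPKM with BIX-01294 and 17.0 FPKM with DMSO (−1.41). Lysosome genes other than the pump had a median of 0.13, with CTSL1, a cathepsin, called higher (195 and 60.9 FPKM, 1.66) and the lysosomal regulator gene TFEB called lower (1.59 and 4.49 FPKM, −1.08, or −0.53 with a pseudocount of 5), out of 34.

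Autophagy genes, the subject of the series, did not lie to one side. Of 33 core genes 4 were called higher with GSK-J4 and 2 lower, against 10.4% and 10.8% of all genes, and the median of −0.04 ranged from −0.21 to 0.43 under the other settings tried. With quantile normalization the genes called higher numbered 7. Against DMSO the median was 0.28 for GSK-J4 and 0.19 for BIX-01294. ATG9A, the membrane protein that seeds autophagosomes, was at 24.3 FPKM with GSK-J4 and 8.24 FPKM with BIX-01294 (1.45), and WIPI1, a phosphoinositide binder, at 9.89 and 3.55 FPKM (1.26, or 0.80 with a pseudocount of 5). BECN1, a subunit of the initiating lipid kinase complex, was at 33.0 and 13.6 FPKM (1.22), and ATG12, part of the conjugation machinery, at 12.6 and 32.8 FPKM (−1.31). MAP1LC3B, the LC3 protein of autophagosome membranes, was at 170 FPKM with GSK-J4 and 178 FPKM with BIX-01294, both above the 36.2 to 89.0 FPKM of the other 8 libraries (−0.06). The receptor gene SQSTM1 was at 165, 121 and 50.2 FPKM with GSK-J4, BIX-01294 and DMSO (0.45). For MAP1LC3B and SQSTM1 the compounds were thus both above DMSO and less than 2-fold apart.

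Of the compounds' own targets KDM6B was called, lower with GSK-J4, and members of their families lay on both sides. KDM6B, a target of GSK-J4, was at 37.2 FPKM with BIX-01294, 12.1 FPKM with GSK-J4, 3.42 FPKM with DMSO and at most 8.47 FPKM elsewhere (−1.54). KDM6A was at 7.53 FPKM with BIX-01294, 3.31 FPKM with GSK-J4 and 1.95 to 3.85 FPKM in the other 8 (−0.99). KDM6B was above the other libraries with both compounds, and KDM6A with BIX-01294 alone. In the Jumonji list 3 of 16 genes were called higher and 3 lower, against 10.4% and 10.8% of all genes, with a median of −0.06. The higher genes included KDM4B (12.98 and 2.83 FPKM, 1.87) and KDM3A (26.7 and 11.9 FPKM, 1.10, or 0.90 with a pseudocount of 5), which are also HIF targets, and JMJD1C was the lowest (15.3 and 56.0 FPKM, −1.80). EHMT1, a target of BIX-01294, was at 6.96 FPKM with GSK-J4, 8.11 FPKM with BIX-01294 and 7.64 FPKM with DMSO (−0.19). EHMT2 was listed at 0 in all 10 libraries, as was the ribosomal protein gene RPS18, so a listed 0 is not read as absence. The EHMT and H3K9 methylation list had a median of −0.09, or 0.026 with quantile normalization, with 1 of 15 called lower (ATF7IP, a partner of SETDB1, at 1.78 and 10.9 FPKM). PRC2 subunits had a median of −0.32 (−0.13 with a pseudocount of 5) with 1 of 11 called lower (AEBP2, −1.36), and EZH2, the H3K27 methyltransferase, was at 10.1 and 12.2 FPKM (−0.24). KDM1A, the H3K4 demethylase, was at 42.5 and 45.5 FPKM (−0.10).

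HOX genes, the classical targets of H3K27 methylation, had a median of 0.71 above all genes, where replicate medians of other pairs were at most 0.21 apart. Of 24 tested genes 8 were called higher and 2 lower, against 10.4% and 10.8% of all genes. With a pseudocount of 5 the median was 0.35, with 4 called higher and 1 lower, and with quantile normalization it was 0.51. HOXA10 was at 12.9 FPKM with GSK-J4, 1.84 FPKM with BIX-01294 and 3.75 FPKM with DMSO (2.29), and HOXA13 at 6.35, 0.628 and 1.98 FPKM (2.17). With a pseudocount of 5 these differences were 1.39 and 1.01. HOXC4 went the other way, with 1.65, 8.94 and 3.55 FPKM (−1.91, or −1.07 with that pseudocount). GSK-J4 was the highest library at 8 of the 24 and BIX-01294 the lowest at 8, against 14.9% and 13.2% of all genes, and against DMSO the list's median was 0.35 and −0.35. Levels were low, and the other 14 HOX genes did not pass the filter. Cancer-testis genes, often silenced by chromatin marks, had a median of −0.31, and 16 did not pass the filter. Of 8 tested genes 2 were called lower and 0 higher, against 10.8% and 10.4% of all genes. MAGEA3 had the larger difference (−1.24, or −0.55 with a pseudocount of 5). MAGEA6 was the other, and its call ended with quantile normalization (−0.73) and with a pseudocount of 5 (−0.94). With that pseudocount 0 of the 8 genes were called in either direction.

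**Figure D4:**
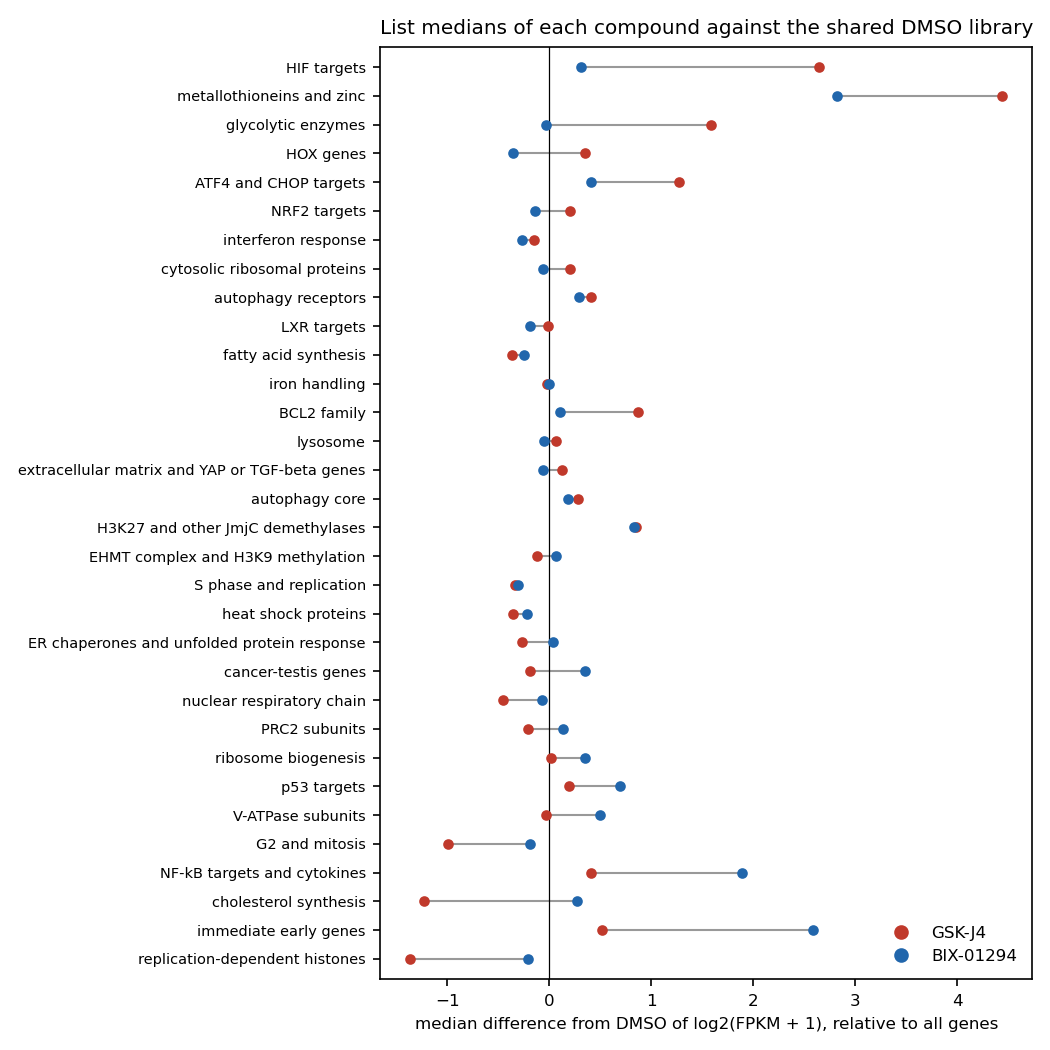
Median difference from the DMSO library of log2(FPKM + 1), relative to all genes, for 32 gene lists, with GSK-J4 in red and BIX-01294 in blue joined by a line. Both comparisons use the same DMSO library. The compounds lie far apart at HIF targets (2.65 and 0.31), glycolytic enzymes (1.58 and −0.03), immediate early genes (0.52 and 2.59) and cholesterol synthesis (−1.23 and 0.27), and close together at Jumonji demethylases (0.85 and 0.83).

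The plot of list medians against DMSO sets the compounds side by side. Both used the same DMSO library, so an error of that library moves both alike. GSK-J4 had 1142 genes at least 2-fold above DMSO (8.92%) and 763 below (5.96%), and BIX-01294 had 1276 above (9.97%) and 773 below (6.04%). The list medians were furthest apart at HIF targets, immediate early genes, metallothioneins, glycolytic enzymes, cholesterol synthesis and NF-kB targets.

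Genes for the machinery of protein and RNA synthesis differed by less. Cytosolic ribosomal proteins had a median of 0.28, inside the replicate gap of up to 0.42. Of 77 genes 69 were above their BIX-01294 level, against 45.1% of all genes, and 1 was called (RPL10, 785 and 372 FPKM, 1.08). Ribosome biogenesis genes had a median of −0.42, also inside their replicate gap of up to 0.43. BIX-01294 was the highest of the 10 libraries at 23 of the 30, against 26.5% of all genes. Of the 30, 4 were called lower, near the 10.8% of all genes, and 0 higher. DDX10, a helicase of ribosome assembly, was at 13.02 FPKM with GSK-J4, 51.2 FPKM with BIX-01294 and 22.4 FPKM with DMSO (−1.89). The noncoding hosts of small nucleolar RNAs, listed after values were seen, had a median of −0.85. Replicate medians of other pairs were at most 0.40 apart. The 17 genes included 8 called lower and 1 higher, against 10.8% and 10.4% of all genes. GAS5 was at 545 FPKM with BIX-01294 and 220 FPKM with GSK-J4 (−1.30), and SNHG17 at 101 and 9.51 FPKM (−3.28). Strand was not stated for these reads, so rows that overlap other genes are uncertain. Nuclear-encoded respiratory chain genes had a median of −0.31 (−0.14 with quantile normalization), with 2 of 42 called lower and 0 higher. Their differences were below 0 at 33 genes, against 53.9% of all genes. Interferon response genes had a median of 0.29, with 4 of 20 called higher and 1 lower, against 10.4% and 10.8% of all genes. Another 12 did not pass the filter.

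Among the largest differences of all, several genes belonged to no list. On the higher side, they were FAM162A, a HIF-responsive mitochondrial protein (381 FPKM with GSK-J4, 20.1 FPKM with BIX-01294, 193 FPKM with BRD4770, 4.18), C10orf10 (58.1 and 2.35 FPKM, 4.14), ANKZF1 (51.6 and 1.12 FPKM, 4.63) and PPP1R3C, a glycogen-targeting phosphatase subunit (23.8 and 0.204 FPKM, 4.36, or 2.47 with a pseudocount of 5). At ANKZF1 and PPP1R3C GSK-J4 was the highest and BIX-01294 the lowest of the 10 libraries, with BRD4770 the second highest at both (30.7 and 19.2 FPKM). The fucosyltransferase gene FUT11 showed the same order, with 48.3 FPKM for GSK-J4, 2.20 FPKM for BIX-01294 and 34.6 FPKM for BRD4770. FAM198A (14.7 FPKM) and RNF165 (12.1 FPKM) were highest with GSK-J4 and listed at 0 with BIX-01294, and no other library exceeded 0.942 and 1.25 FPKM. Both passed the filter only through GSK-J4. ESM1 (28.2 FPKM with GSK-J4, 42.4 FPKM with BRD4770) and SLAMF9 (29.1 and 12.0 FPKM) were listed at 0 with BIX-01294 as well. A difference from a level of 0 depends on the pseudocount, so none is given for these 4 genes. On the lower side, ODZ2 was at 20.7 FPKM with BIX-01294 and listed at 0 in the other 9 libraries, so it passed the filter only through BIX-01294. The zinc finger gene ZSCAN31 was at 1.44 FPKM with GSK-J4, 25.9 FPKM with BIX-01294 and 2.42 FPKM with BRD4770. The readthrough row NME1-NME2 was at 29.0 FPKM with BIX-01294 and listed at 0 with GSK-J4, but it overlaps NME1 (194 and 221 FPKM) and NME2 (552 and 593 FPKM), at which the libraries hardly differed, so that row is uncertain.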

How the data were processed

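RNA of U2OS cells was sequenced in 14 libraries, and the authors deposited FPKM values per gene symbol in 2 tables, of 28502 rows and 10 libraries for replicate 1 and of 25209 rows and 4 libraries for replicate 2. Per the submitters' processing notes, FastQC, cutadapt and TopHat2 were used with the hg19 build. Which program computed FPKM, and with which annotation and strand setting, was not given in the sources used here. Libraries were made from isolated mRNA, per the labels' protocols. The 1 row that named no gene was left out, and 0 columns were unused.

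The columns of GSK-J4 and BIX-01294 were compared as deposited, as log2(FPKM + 1), for rows averaging 1 FPKM or more across the 10 libraries, with pandas 2.3.3 in Python 3.11.15. With 1 library each there was no test. Replicate spread came from the 4 groups with 2 libraries, within tables, over the 12058 genes in both. Depth relative to DMSO came from ratios of FPKM up to 0.3. Files give no counts, so no interval could be computed.

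Lists numbered 36, of which 4 held cell type markers, and a median needed 5 tested members. Genes were named by rule: 14 set genes, the 12 largest differences per direction, up to 4 called members per list, and the 5 largest per direction where the pair took both ends of the 10 libraries. Further members were named after their values were seen, 3 lists were added likewise, and some genes picked by rule were left out for length or are not reported here. The members and lists were chosen with earlier results of these data known. Other settings tried were a pseudocount of 0.1 or of 5, all rows unfiltered, rows averaging 5 FPKM or more, centring on library medians, quantile normalization, scaling to TPM, gene rows alone and, chosen after seeing the data, no rows listed at 0 in either library. Promoters are RefSeq sequences of GRCh38.p14, a different build from the files, and were matched by symbol only. The promoters of a single chromosome were left out of the set used, so list members there have none.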

Additional observations from a re-analysis of the deposited data

How the results depend on the processing

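The 1330 higher and 1380 lower genes became 468 and 673 with a pseudocount of 5, and 687 higher and 1003 lower with a mean of at least 5 FPKM. Under the other settings the counts lay within 1.5 times of these, from 1130 to 1815 higher and from 1115 to 1776 lower. Of 296 list medians under 9 settings, 246 moved by less than the spread between replicates and 48 by more. The spread here is an SD between replicates, smaller than the largest gap used above. Another 2 medians, which had exceeded that SD but lay inside the largest gap, changed sign, both with quantile normalization. They were those of the EHMT and H3K9 methylation list, to 0.026, and the LXR list, to −0.033, and the cause was not tested. With no filter the medians of the NF-kB, interferon, histone and cancer-testis lists were 0. Of 1056 values of 121 named genes, 911 moved by less than the spread and 145 by more, and 0 of the values of genes called at 2-fold changed sign. The shallow depth of both libraries limits genes near 1 FPKM most. No paired analysis was possible because GSK-J4 and BIX-01294 have 1 library each, with no second replicate number to pair.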
